A study of Mus musculus with 3 samples.

Results

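The SLC25 genes encode the mitochondrial carrier family, and they were taken from the deposited count table by symbol: Slc25a followed by digits and nothing else. The rule found 47 genes among the 56941 of the table, and each of the 47 had at least 1 count in some library. The libraries hold polyadenylated RNA of microvascular fragments, short pieces of small vessel isolated from the brains of adult wild-type C57BL/6J mice. There are 3 libraries, 1 from each of 3 mice by the series' design text, and they form 1 group. No treatment, age in weeks, sex or batch is given in the labels, and there is no whole-brain or sorted-cell control. A fragment carries endothelium together with attached mural and glial cells, so each value below is a sum over several cell types. In such bulk RNA, fewer cells of a type and less RNA per cell cannot be told apart.

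Mitochondrial carriers sit mostly in the inner membrane, where they exchange nucleotides, phosphate, carboxylates, amino acids, cofactors and metals between cytosol and matrix. Each is built from repeats of one membrane module, and together they feed the respiratory chain and link cytosolic to mitochondrial metabolism. Endothelial cells of brain capillaries are known as rich in mitochondria for their kind.

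Levels are given in CPM, a gene's count relative to the total of its library, scaled with edgeR's TMM factors to make libraries comparable. Detection here means that no library was under 1 CPM. CPM does not correct for gene length, so levels of different genes are compared per kilobase. The length was the union of a gene's exons in GENCODE M21, an annotation of build GRCm38 that is not the build of the table (GRCm39), and no genome positions are given for that reason. Where retained introns or rare ends lengthen that union, a second value uses 1 protein-coding transcript, the one with the longest coding sequence. All 47 carriers were matched by symbol.

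Depth ran from 128428355 to 150449539 counts per library. At that depth a count of 0 allows up to 0.0199 to 0.0234 CPM (3 counts), which covers counting error only. The libraries are labelled as microvascular fragments, and all 10 endothelial markers were detected, with a summed level of 15767 to 19418 CPM, against 87.3 to 109 CPM for 6 neuronal markers. Markers of other cell types were detected as well, with sums of 8171 to 8818 CPM for pericytes and smooth muscle (9 genes), 5018 to 8131 CPM for choroid plexus (5 genes) and 4087 to 5512 CPM for microglia (6 genes). Replicate 1 stood apart in 2 ways that touch mitochondrial genes. Its erythroid markers summed to 1089.9 CPM, against 134 and 62.5 CPM in replicates 2 and 3. Its mitochondrially encoded genes took 3.29% of the counts, against 1.75% and 1.65%. In replicate 2 the 4 markers of anterior pituitary summed to 1431 CPM, against 19.0 and 16.9 CPM in the others.

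Several carriers come in pairs of close relatives, and values for such pairs mean little if reads cannot tell them apart. The coding sequences of the ADP/ATP carriers Slc25a5 and Slc25a4 were therefore compared, since these are the highest members per length. They were 77.4% identical over 894 aligned bases, and the longest run they share was 20 bases, against reads of 150 bases. The aspartate-glutamate carriers Slc25a12 and Slc25a13 were 72.1% identical, with a longest shared run of 21 bases. The stretches around these runs are shown 5′ to 3′ on the coding strand, from the GENCODE M21 transcripts (GRCm38), with the shared run in capitals. Coding positions 262 to 401 are shown for the ADP/ATP carriers, 1093 to 1233 for Slc25a12 and 1102 to 1242 for Slc25a13.
Slc25a5: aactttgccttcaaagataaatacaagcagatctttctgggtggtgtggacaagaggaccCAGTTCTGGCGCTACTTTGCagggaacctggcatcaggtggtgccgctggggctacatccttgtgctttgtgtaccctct
Slc25a4: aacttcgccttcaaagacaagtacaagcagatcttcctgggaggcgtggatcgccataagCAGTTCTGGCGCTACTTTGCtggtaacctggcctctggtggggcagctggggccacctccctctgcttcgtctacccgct
Slc25a12: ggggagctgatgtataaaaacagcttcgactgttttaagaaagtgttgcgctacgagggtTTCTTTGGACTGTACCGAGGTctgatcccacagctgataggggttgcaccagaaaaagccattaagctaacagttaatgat
Slc25a13: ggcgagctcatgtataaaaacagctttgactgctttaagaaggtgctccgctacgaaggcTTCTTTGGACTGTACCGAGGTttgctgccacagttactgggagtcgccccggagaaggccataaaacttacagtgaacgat

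Around these longest shared runs, 28 of 140 positions differ between the ADP/ATP carriers and 27 of 141 between the aspartate-glutamate carriers. Across the 11 related pairs compared below, coding identity ran from 60.1% to 77.4% and the longest shared run from 8 to 21 bases. Against all GENCODE M21 transcripts, pseudogenes included, 39 of the 47 coding transcripts shared no window of 150 bases with another gene. In the other 8 the shared windows made up 0.226% to 7.59%, most in Slc25a33. Windows were compared on both strands. For Slc25a33, Slc25a25, Slc25a10 and Slc25a46 the only sharing gene is one that overlaps the carrier on the other strand, the overlap described below. The processed copy Slc25a5-ps, which the symbol rule leaves out, had 3, 6 and 0 counts. Exons of 12 carriers overlap a gene on the other strand. That overlap reaches 31.3% of the exonic length in Slc25a35, under Rangrf, and 14.9% in Slc25a33. The kit is stranded, but the strand setting of the authors' counting is not given in the sources used here, so the counts of these genes are uncertain to that extent.

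The family was broadly present, and its total on the TMM scale hardly moved between the mice. Of 47 carriers, 40 were detected (85.1%), against 23.2% of all genes in the table and 61.6% of those that GENCODE M21 calls protein coding. The 47 genes summed to 1880.0, 1867 and 1868 CPM in replicates 1, 2 and 3. Without TMM scaling they took 0.1905%, 0.1910% and 0.1802% of the library counts, lowest in replicate 3 (mean 0.187% ± 0.00609, SD, n = 3). No clear break in level set the detected members apart from the undetected ones, and the lowest library of Slc25a27 had 1.07 CPM. Nearest above the limit were Slc25a27 at 1.14 ± 0.0635 CPM, Slc25a47 at 1.82 ± 0.345 CPM and Slc25a13 at 3.24 ± 0.596 CPM, and just under the limit stood Slc25a43 at 0.483 ± 0.0648 CPM, Slc25a21 at 0.211 ± 0.0384 CPM and Slc25a2 at 0.129 ± 0.0192 CPM. Over all members the median level was 4.30 ± 0.12 on the log2(CPM + 1) scale. The median of all 13211 detected genes was 4.79, and that of the 40 detected carriers, which the limit itself selects, was 4.53. Per kilobase the detected carriers had a median of 6.07 ± 0.225 CPM, against 5.82 ± 0.0197 CPM over the detected genes with a length.

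**Figure D1:**
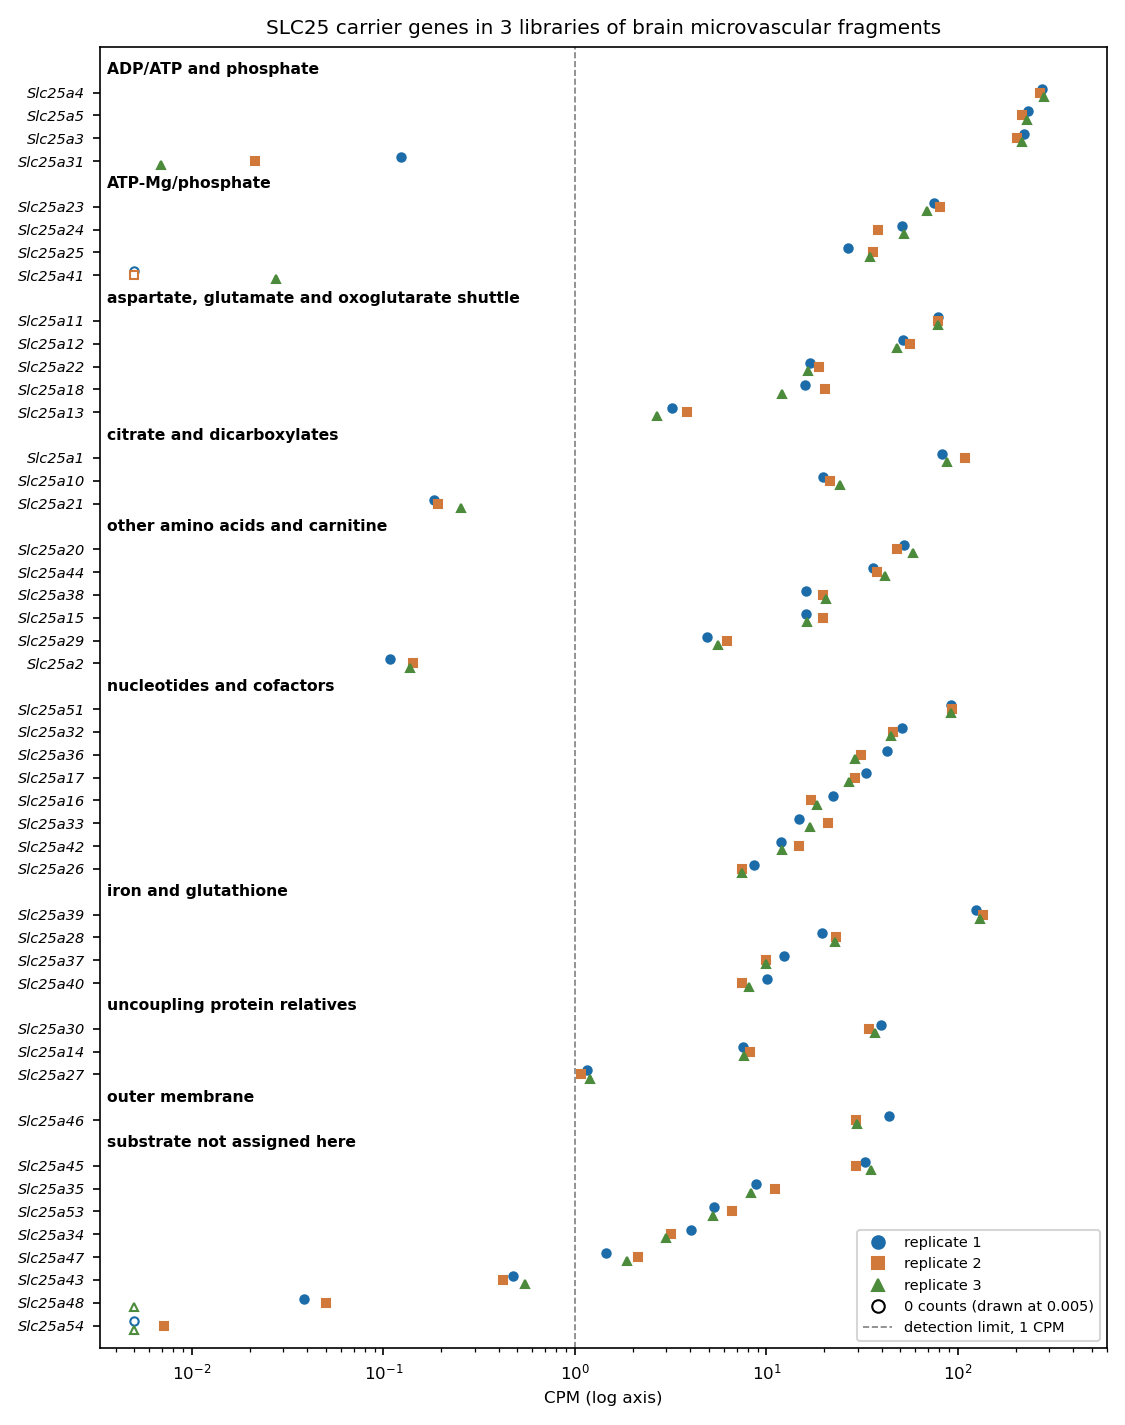
CPM of 46 SLC25 genes on a log axis, 1 symbol per library, grouped by what the carriers move; open symbols at 0.005 mark counts of 0 and the dashed line marks 1 CPM. The 3 libraries lie close together for most detected genes, and 7 genes lie left of the line in every library.

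The ADP/ATP and phosphate carriers, which supply the matrix with the substrates of ATP synthase and export its product, were detected with one exception. Slc25a4 (adenine nucleotide translocase 1, the form known from heart and muscle) had 276, 269 and 281 CPM in replicates 1, 2 and 3. Slc25a5 (translocase 2, the form of many dividing and non-muscle cells) had 232, 215 and 230.3 CPM. The phosphate carrier Slc25a3, which also brings copper to the matrix, had 221, 204 and 217 CPM. In each of these 3 genes replicate 2 was the lowest library, and the highest was 1.04 to 1.08 times the lowest. The 3 genes together held 38.2% ± 1.19 of the family's counts. Slc25a31, the translocase known from testis, had 16, 3 and 1 counts and was not detected.

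Per kilobase, Slc25a5 stood first at 137 ± 5.70 CPM and Slc25a4 second at 117 ± 2.51 CPM. The log2 ratio of Slc25a5 to Slc25a4 was 0.27, 0.19 and 0.23 in the 3 libraries, so translocase 2 was higher per length in each mouse, by 1.17-fold. Without length scaling the order turned, with a mean log2 ratio of -0.29. Slc25a3 showed how far a length can move a level. Its annotated exons span 5550 bases but its coding transcript only 1341, and its level was 38.5 ± 1.61 CPM per kilobase with the first and 159 ± 6.68 with the second. That took it from position 5 in the family to position 2, between Slc25a5 at 182 ± 7.57 and Slc25a4 at 143 ± 3.07 CPM per kilobase of coding transcript.

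**Figure D2:**
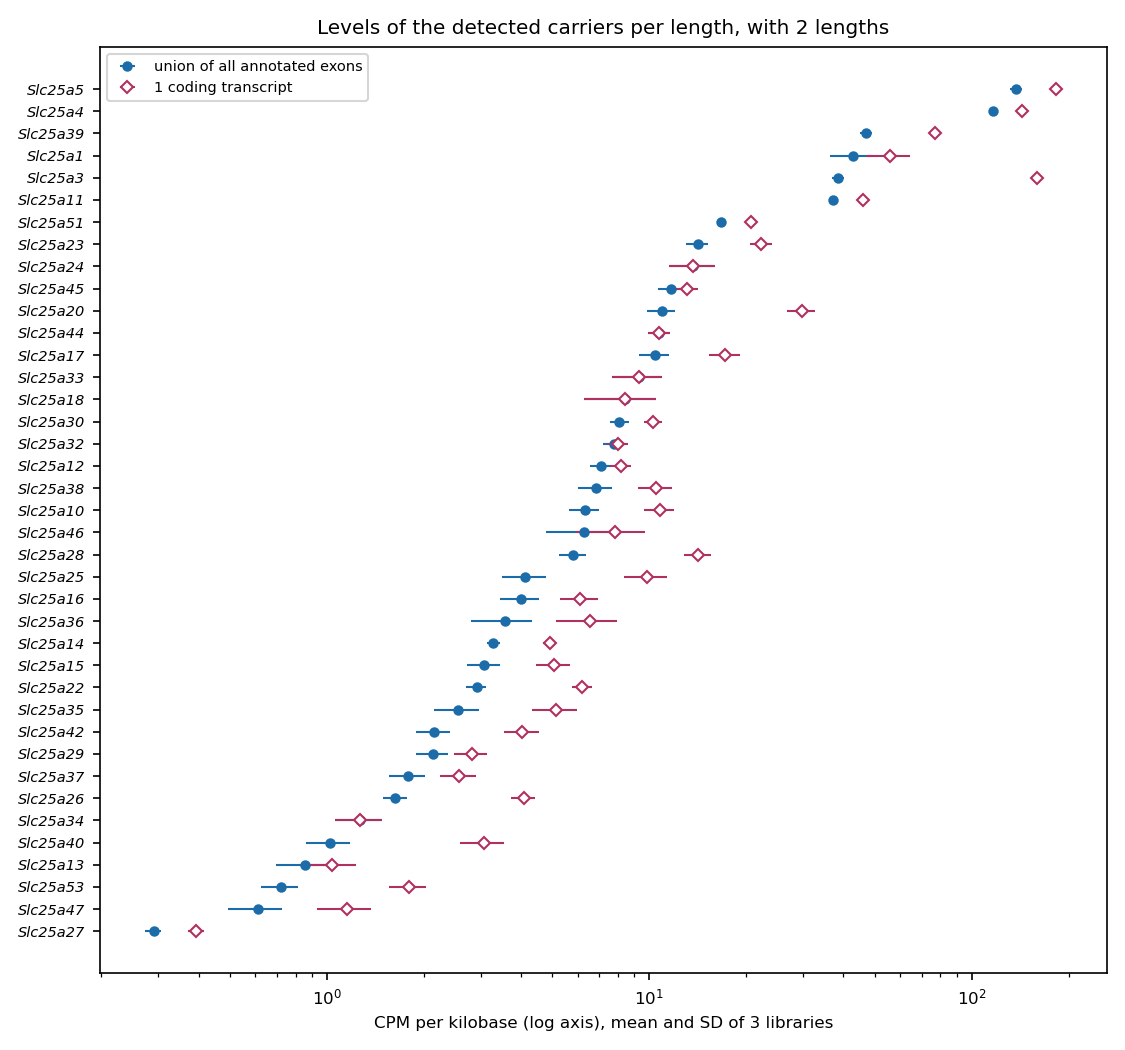
CPM per kilobase (log axis) of 39 detected carriers, mean and SD of 3 libraries, ordered by the value with the union of exons; filled circles use that union and open diamonds 1 coding transcript. The diamonds lie at or right of the circles, farthest for Slc25a3, where 38.5 becomes 159.

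The ATP-Mg/phosphate carriers exchange adenine nucleotides for phosphate and adjust the size of the matrix pool. Most of them carry calcium-binding domains that face the intermembrane space. Slc25a23 had 74.8, 80.9 and 69.0 CPM, Slc25a24 had 50.9, 38.2 and 52.0 CPM, and Slc25a25 had 26.8, 36.2 and 34.6 CPM. In Slc25a24 replicate 2 was the low library, and in Slc25a25 replicate 1 was. Slc25a41, which lacks the calcium-binding part, was at 0 counts in replicates 1 and 2 and had 4 in replicate 3. Per kilobase Slc25a24 exceeded Slc25a25 by a log2 ratio of 1.73 ± 0.43 in all 3 libraries, but by only 0.47 with coding transcripts. No order held between Slc25a24 and Slc25a23 on the union of exons: the log2 ratio was 0.07, -0.46 and 0.22, and its mean turned from -0.06 to 0.15 without replicate 2. With coding transcripts Slc25a23 was the higher in all 3 libraries (-0.71).

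The carriers of the malate-aspartate shuttle and of glutamate move reducing equivalents and amino groups. Slc25a11, the oxoglutarate carrier that trades malate for oxoglutarate, had the smallest spread relative to its mean among the detected carriers, with 78.4, 78.4 and 78.9 CPM. Its partner in the shuttle is an aspartate-glutamate carrier, of which there are 2 calcium-regulated forms. Slc25a12 (aralar, the form known from brain and muscle) had 51.4, 56.0 and 48.2 CPM. Slc25a13 (citrin, the form known from liver) had 3.20, 3.86 and 2.67 CPM. The ranges lay far apart, and per kilobase Slc25a12 exceeded Slc25a13 by a log2 ratio of 3.06 ± 0.16, or 8.36-fold, and by 7.95-fold with coding transcripts.

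The glutamate carriers gave a different picture. Slc25a22 had 16.9, 18.9 and 16.6 CPM. Slc25a18, the form known from astrocytes, had 16.0, 20.2 and 12.04 CPM and was the one detected carrier whose highest library reached 1.5 times its lowest (1.67 times). Of all detected genes, 12.2% reached that ratio, against 2.5% of the detected carriers. The 6 astrocyte markers were all detected and summed to 1713, 1918 and 1039 CPM. Of them 4 had the library order of Slc25a18, and 5 were lowest in replicate 3, all but Gja1. The 5 choroid plexus markers summed to 6818, 8131 and 5018 CPM. All 5 were lowest in replicate 3, but only Ttr, which makes up most of that sum, had the order of Slc25a18. Lowest in replicate 3 were also 7 of 7 erythroid, 3 of 6 neuronal and 3 of 9 pericyte and smooth muscle markers. In these 3 lists 0 markers had the order of Slc25a18. Also lowest in replicate 3 were 1 of 10 endothelial (Tek), 1 of 4 anterior pituitary (Pomc) and 1 of 6 oligodendrocyte markers. Tek and Pomc had the order of Slc25a18. The part of any of these cell types in the level of Slc25a18 was not tested. Its spread did not pass edgeR's dispersion test (adjusted p = 0.962). Per kilobase Slc25a18 was above Slc25a22 in all 3 libraries. The log2 ratio of Slc25a22 to Slc25a18 was -1.50 ± 0.28, and -0.41 with coding transcripts, but it turned to 0.15 without length scaling.

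Carriers of citrate and dicarboxylates serve lipid synthesis and the filling of the citric acid cycle. Slc25a1, which exports citrate for fatty acid and sterol synthesis, had 82.1, 109 and 87.4 CPM, with replicate 2 above the others. It took position 4 per kilobase at 42.9 ± 6.60 CPM. The dicarboxylate carrier Slc25a10 had 19.8, 21.4 and 24.3 CPM. The oxodicarboxylate carrier Slc25a21, which takes part in lysine and tryptophan breakdown, was not detected, with 24, 27 and 37 counts.

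Among the other amino acid carriers and the carnitine carrier, 5 of 6 were detected. Slc25a20, which brings acylcarnitines into the matrix for fatty acid oxidation, had 52.1, 48.2 and 58.6 CPM. Slc25a44, a carrier of branched-chain amino acids, had 36.0, 37.7 and 41.8 CPM. Replicate 3 was the highest library for both. Slc25a38, a glycine carrier needed for the first step of heme synthesis, had 16.2, 19.7 and 20.5 CPM. The lowest detected one per kilobase, Slc25a29, a carrier of basic amino acids, had 4.91, 6.20 and 5.57 CPM. Of the ornithine carriers, Slc25a15 had 16.1, 19.7 and 16.2 CPM, while Slc25a2 had 14, 20 and 20 counts. Their log2 ratio per kilobase was 5.03 ± 0.18.

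All 9 carriers of nucleotides and cofactors were detected. Slc25a51, the carrier of NAD+ and the highest of the 9 per kilobase, had 91.5, 92.8 and 91.4 CPM, nearly the same in each mouse. Slc25a17, a carrier of peroxisomes and not of mitochondria that moves coenzyme A and related cofactors, had 33.2, 29.1 and 26.9 CPM. The lowest of the 9 per kilobase, the S-adenosylmethionine carrier Slc25a26, had 8.62, 7.43 and 7.47 CPM. Of the pyrimidine nucleotide carriers, Slc25a33 had 14.9, 21.03 and 16.9 CPM and Slc25a36 had 42.6, 31.1 and 28.8 CPM. Replicate 1 was lowest for the first and highest for the second. Their order depended on length: the log2 ratio of Slc25a36 to Slc25a33 was -1.39 ± 0.50 per kilobase, -0.52 with coding transcripts, where Slc25a36 was the higher in 1 library, and 0.95 without scaling. Slc25a42, a coenzyme A carrier, stood at 12.9 ± 1.58 CPM, Slc25a16 at 19.2 ± 2.62 CPM and the folate and FAD carrier Slc25a32 at 47.2 ± 3.45 CPM.

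Carriers of iron and glutathione supply heme and iron-sulfur cluster synthesis and the matrix redox buffer. Slc25a39, a glutathione carrier, took position 3 per kilobase at 47.0 ± 2.04 CPM, and had 124, 135 and 130.3 CPM. Its relative Slc25a40 had 10.1, 7.48 and 8.13 CPM. The log2 ratio per kilobase was 5.54 ± 0.28, or 46.4-fold, the widest of the 11 pairs on this length. With coding transcripts it was 25.2-fold, under the 53.7-fold of Slc25a15 over Slc25a2. Of the iron importers, Slc25a28 (mitoferrin 2, the form of most tissues) had 19.4, 23.2 and 22.8 CPM. Slc25a37 (mitoferrin 1, the form of developing red cells) had 12.3, 9.94 and 9.95 CPM. Slc25a28 was higher per kilobase in all 3 libraries, by a log2 ratio of 1.71 ± 0.32 (2.47 with coding transcripts). Replicate 1, where the erythroid markers summed to 1089.9 CPM, was the highest library of Slc25a37, by 1.24 times, and the lowest of Slc25a38. The part of red cell RNA in either was not tested.

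Of the uncoupling protein relatives, Slc25a30 had 39.5, 34.5 and 36.9 CPM and Slc25a14 had 7.52, 8.17 and 7.61 CPM. Slc25a27, known as a neuronal form, was the lowest detected carrier per kilobase, with 1.15, 1.07 and 1.20 CPM. Per kilobase Slc25a14 was below Slc25a30 in all 3 libraries (log2 ratio -1.30 ± 0.16) and above Slc25a27 (3.50 ± 0.14). Slc25a46, an outer membrane protein linked to mitochondrial shape and lipid transfer, had 43.6, 29.2 and 29.5 CPM, with replicate 1 clearly above the other two. Of the 8 members given no substrate here, Slc25a45 was highest per kilobase, with 32.5, 29.5 and 35.2 CPM. Next per kilobase came Slc25a35 with 8.81, 11.1 and 8.27 CPM, Slc25a34 with 4.03, 3.16 and 2.98 CPM, Slc25a53 with 5.31, 6.58 and 5.28 CPM and Slc25a47, known from liver, with 1.46, 2.15 and 1.86 CPM. Slc25a43 had 62, 59 and 80 counts. Slc25a48 had 5, 7 and 0 counts and Slc25a54 had 0, 1 and 0, at or under the 3-count floor in at least 1 library each.

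**Figure D3:**
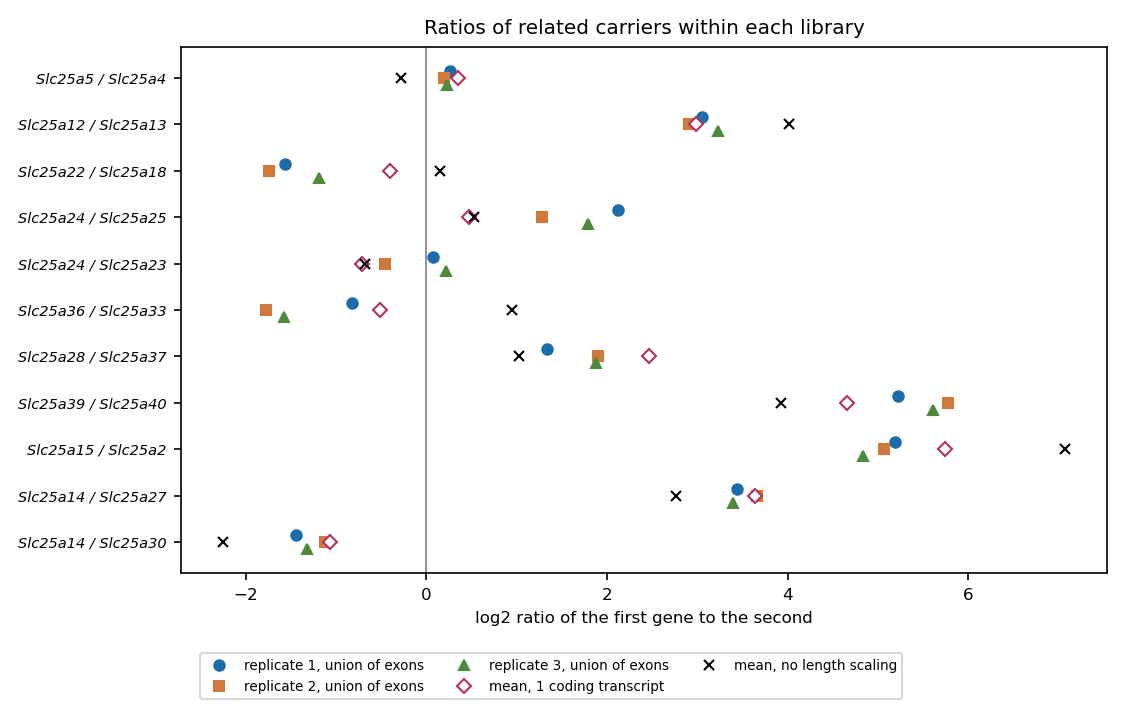
Log2 ratios of 11 pairs of related carriers: 1 symbol per library per kilobase of exon union, open diamonds for the mean with 1 coding transcript, crosses for the mean with no length scaling. The libraries stay on 1 side of 0 for 10 of the pairs, all but Slc25a24 to Slc25a23, while the crosses lie on the other side for Slc25a5 to Slc25a4, Slc25a22 to Slc25a18 and Slc25a36 to Slc25a33.

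Neighbours in the order of levels were often not separable. Along the 40 detected carriers ranked per kilobase, 19 of the 39 neighbouring pairs kept their order in all 3 libraries, and in 7 the ranges of the libraries did not overlap. Such gaps included Slc25a5 to Slc25a4, Slc25a4 to Slc25a39, Slc25a11 to Slc25a51, Slc25a51 to Slc25a23, Slc25a26 to Slc25a34 and Slc25a47 to Slc25a27. From Slc25a39 through Slc25a1 and Slc25a3 to Slc25a11, the libraries of each gene overlapped those of the next. These gaps and overlaps were read on the union of exons. The ranges of the pairs named as gaps also lay apart with coding transcripts, except for Slc25a51 to Slc25a23. With coding transcripts Slc25a23 (22.3 ± 1.77 CPM per kilobase) stood above Slc25a51 (20.7 ± 0.169), and their ranges overlapped. On that length the ranges of Slc25a3 (159 ± 6.68), Slc25a39 (76.9 ± 3.34), Slc25a1 (55.7 ± 8.58) and Slc25a11 (45.9 ± 0.192) lay apart. With 3 mice the smallest two-sided p of an exact sign-flip test is 0.25, so no test of these orders is given.

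No carrier was called as varying between the mice. An intercept-only quasi-likelihood fit in edgeR compared each gene's dispersion with the trend over 18087 genes, of which 43 were carriers. At a Benjamini-Hochberg adjusted p under 0.05 it called 15 genes (0.0829%) and 0 carriers. At that share of all genes, 0 of 43 is no result about the carriers. On simulated counts, drawn for each gene at the dispersion of the trend, this test recovered 33 of 200 genes shifted 2-fold in 1 library (16.5%). It missed most shifts of that size there, and recovery in the real counts can be lower. At an unadjusted p under 0.05 it marked 937 genes (5.18%) and 1 carrier, Slc25a46 (adjusted p = 0.942). DESeq2's rule for dispersion outliers named 137 of 30513 genes and 0 of 47 carriers, again no result about the carriers at so small a share. No detected carrier had its highest library at 2 times its lowest, as 2.41% of the detected genes did. The replicates are separate mice by the design text, so the spread holds both animal and handling differences.

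The mitochondrially encoded messengers, subunits of the complexes that the carriers serve, summed to 30930.2, 16139 and 16196 CPM. Their mean levels were very uneven, with 9078 CPM for mt-Co1 and 4801 CPM for mt-Cytb. Far lower were mt-Co2, mt-Co3 and mt-Atp6 at 6.55, 4.25 and 3.12 CPM, and mt-Atp8 at 0.198 CPM. The cause was not tested, and the sum says little about the low ones. The 11 detected messengers of 13, low ones included, deviated from their own means by 0.65, -0.33 and -0.31 on the log2(CPM + 1) scale. The 40 detected carriers deviated on average by -0.00052, 0.03 and -0.03, means in which opposite deviations of single carriers cancel. Over the 13211 detected genes the same deviations were 0.01, -0.0049 and -0.0039. Of the 13 mitochondrial messengers 0 passed edgeR's dispersion test, against 0.0829% of all genes. An unadjusted p under 0.05 was found for 8, against 5.18% of all genes. Slc25a46 and Slc25a36 were the carriers highest in replicate 1 by the widest margins, at 1.49 and 1.48 times the lowest library; the part of that library's mitochondrial or red cell RNA in them was not tested. Replicate 1 was the highest library for 12 of the 40 detected carriers (30%), against 34.5% of all detected genes. Replicate 2 was the highest for 19 (47.5%, against 28.7%) and replicate 3 for 9 (22.5%, against 36.8%). These shares are descriptions, and the part of the pituitary RNA of replicate 2 in them was not tested.

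**Figure D4:**
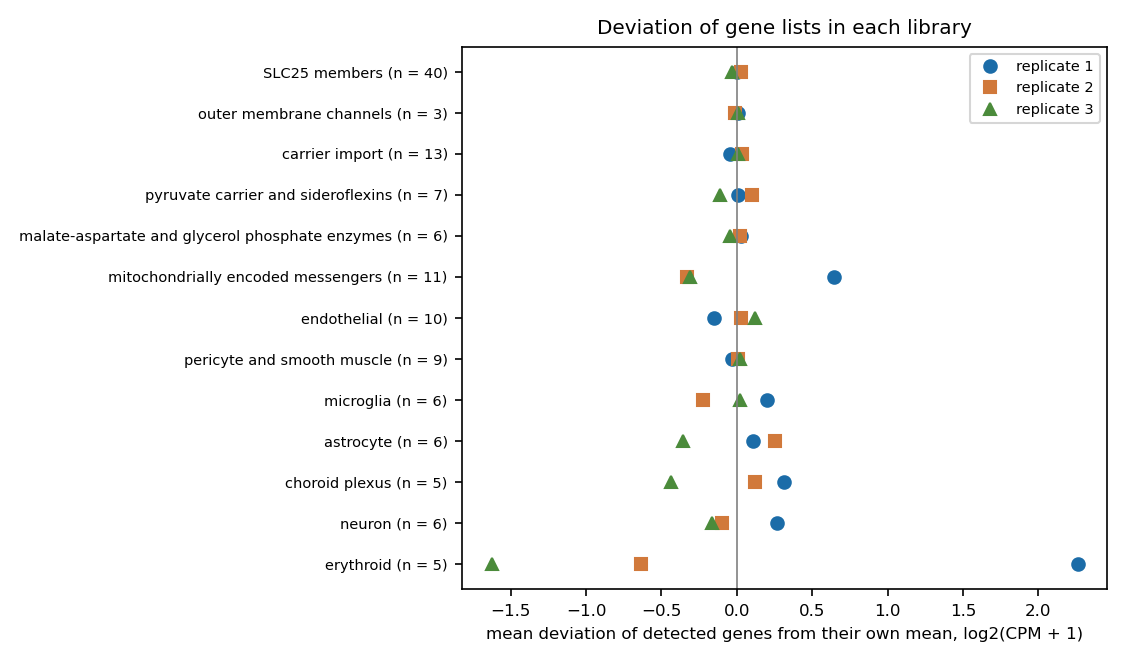
Mean deviation of the detected genes of each list from their own means over the libraries, log2(CPM + 1), 1 symbol per library, with the number of detected genes in brackets. The mean over the 40 carriers lies about 0.03 or less from 0 in each library. The means of mitochondrially encoded messengers and erythroid markers reach 0.65 and 2.26 in replicate 1. Opposite deviations cancel in a mean, and Slc25a46 alone deviates by 0.37 in replicate 1.

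Nuclear genes that work with the carriers were described in the same way. The outer membrane channels, through which carrier substrates reach the intermembrane space, had 150.2 ± 1.57 CPM for Vdac1, 173 ± 1.34 CPM for Vdac2 and 113 ± 4.65 CPM for Vdac3. All 13 genes of the import route that inserts carriers into the inner membrane were detected, and 0 were called by the dispersion test (0 also at an unadjusted p under 0.05), against 0.0829% of all genes, so the count says little about them. Per kilobase they ran from Timm8b, a small chaperone of the intermembrane space, at 47.2 ± 2.94 CPM down to Timm10b at 1.52 ± 0.150 CPM. Timm22, the pore of the carrier translocase, had 28.8, 31.5 and 28.8 CPM. Tomm70a, the receptor for carrier precursors, had the widest ratio of the 13 between libraries, with 86.4, 76.8 and 64.5 CPM (1.34 times). The 6 shuttle enzymes were detected too, and 0 were called, a count that says as little. The malate dehydrogenases Mdh1 and Mdh2 had 194 ± 9.66 and 206 ± 9.49 CPM. The glycerol phosphate shuttle showed unequal partners: Gpd2, in the inner membrane, stood at 35.5 ± 1.63 CPM per kilobase and cytosolic Gpd1 at 2.04 ± 0.217.

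Other transporters of the inner membrane included the pyruvate carrier subunits Mpc1 and Mpc2, at 13.7 ± 0.880 and 33.5 ± 1.36 CPM. All 7 genes of the list of pyruvate carriers and sideroflexins were detected. The dispersion test called 0 of them, against 0.0829% of all genes, so the count says little about them. Sfxn3 was the highest per kilobase of the sideroflexins, a family that includes serine carriers, at 35.2 ± 0.925 CPM. Sfxn5 had 68.8, 78.6 and 41.5 CPM and was lowest in replicate 3. So were 5 of the 6 astrocyte, all 5 choroid plexus, all 7 erythroid and 3 of the 6 neuronal markers, among others. The part of these cell types in Sfxn5 was not tested. The unadjusted p of Sfxn5 in edgeR was under 0.05 and its adjusted p = 0.734.

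Of 7 partners in heme and iron-sulfur synthesis, all detected, the test called 1, the erythroid enzyme Alas2, which is also an erythroid marker here. It had 30.6, 3.54 and 1.37 CPM (edgeR adjusted p = 0.0217). The housekeeping form Alas1 had 324, 369 and 436 CPM, and ferrochelatase (Fech) 44.8 ± 2.99 CPM. Abcb10, which binds mitoferrin 1 in red cell precursors, had 24.3 ± 2.15 CPM.

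Proteins of the same family that carry other symbols were outside the rule. Ucp2, an uncoupling protein relative widespread in immune and vascular cells, had 718, 500.3 and 1069 CPM. Per kilobase of exon union (6989 bases) it stood at 109 ± 41.1 CPM, a range that overlaps those of Slc25a5 and Slc25a4. That overlap rests on the union length, since no coding transcript value was computed for Ucp2. Without length scaling Ucp2 was above Slc25a5 and Slc25a4 in every library. Its highest library was over 2 times its lowest, wider than any detected carrier, but it was not called (edgeR adjusted p = 0.900). Mtch1, an outer membrane insertase relative, had 228, 254 and 252 CPM and Mtch2 had 55.9, 56.7 and 53.4 CPM. Ucp1, the protein of brown fat, had 2, 5 and 2 counts, and Ucp3, known from muscle, had 0.330, 0.680 and 0.344 CPM. The dispersion test called 0 of the 4 that could be tested, against 0.0829% of all genes, so the count says little about them.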

How the data were processed

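The authors deposited whole-number counts per gene, 1 column for each of 3 libraries made from 400 ng of total RNA with a stranded polyA kit and paired reads of 150 bases, per the labels' protocols. Counting used featureCounts and Subread 1.4.6-p5 on build GRCm39, per the submitters' processing notes. The aligner, annotation release, strand setting and treatment of multiply mapping reads were not given in the sources used here. Columns were matched to samples by library name. Depth was 128428355, 136672205 and 150449539 counts.

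CPM used TMM factors of 1.01, 1.02 and 0.965 (edgeR 4.0.16, R 4.3.3), with a pseudocount of 1 on the log2 scale. The 49083 genes matched to GENCODE M21 hold 98.3% of the counts. Variability was tested over the 18087 genes kept by filterByExpr, with an upper-tail F test on quasi-dispersions. A check on simulated data found 16.5% of 2-fold changes and 88% of 4-fold ones. It gave each gene the dispersion of the trend, with no spread around it, and shifted only genes of higher counts. Recovery in the real counts was not measured and can be lower. A gene not called can therefore still differ 2-fold or more between mice. DESeq2 1.42.0 size factors and dispersion outliers, detection limits, pseudocounts, lengths and leaving out each library were alternatives. Sequences were compared with Biopython 1.88 under Python 3.11.15. Members, gene lists, pairs and the rule for named genes (detected members of each role list, or the 3 highest and the lowest per kilobase in a list of over 5, with all pair members and those next to the limit) were chosen with earlier results of these data known. Members are named beyond that rule; 1 member enters the totals and counts but is not reported singly or drawn here.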

Additional observations from a re-analysis of the deposited data

How the results depend on the processing

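The count of 40 detected carriers held under DESeq2 size factors, library totals, limits of 0.5 CPM and of 1 CPM in at least 1 library, and without any one library; a limit of 5 CPM left 35. The median level of 4.30 became 4.53 over detected members only, and 4.25 to 4.30 with 1 library left out. The count of 15 genes varying between mice was 7 without replicate 1, 80 without replicate 2 and 33 without replicate 3. It was 0 with a robust prior (785 at an unadjusted p under 0.05, 1 of them a carrier), 173 with no filter on low counts and 137 by DESeq2. The cause was not tested, except that the unfiltered fit tested more genes (30513). The carriers called were 0 under each of these, which at such small shares of all genes is no result about the carriers. Mean deviations of the carriers per library moved by less than their spread under each alternative. Of 66 alternative values for the 11 pair ratios, 40 moved by less than 1 SD, 22 moved further and 4 turned: -0.29 for Slc25a5 to Slc25a4, 0.15 for Slc25a22 to Slc25a18 and 0.95 for Slc25a36 to Slc25a33 without length scaling, and 0.15 for Slc25a24 to Slc25a23 without replicate 2 (-0.19 to 0.15 with 1 library left out). The coding transcript length was added as an alternative after seeing the data. No paired analysis was possible because there is 1 group. The detected carrier with the fewest counts rested on 150 to 174 per library.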
